A study of Mustela putorius furo with 2 samples.

Results

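SLC17A7 and SLC17A6 encode VGLUT1 and VGLUT2, the vesicular glutamate transporters of forebrain neurons. Both were taken by gene symbol, and they are 2 of the 28156 features in the deposited count matrices. SLC17A7 is the feature ENSMPUG00000002665 and SLC17A6 is ENSMPUG00000014065, and each symbol belonged to 1 feature. They were examined in single-nucleus RNA-seq of ferret somatosensory cortex, with 1 library from tissue labelled upper band of cortex and 1 from tissue labelled deeper band. Both are labelled DCX knockout, although the series text speaks of a gene that was knocked down, and the band is the only labelled difference between them. Doublecortin, the product of DCX, binds microtubules in migrating neurons. Loss of its function can leave a band of misplaced neurons beneath the cortex. Strain, age, sex and the number of animals are not given in the labels used here, and control tissue was not analysed here. The titles number the libraries as replicates 1 and 2, but their regions differ, and they were kept apart.

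A vesicular glutamate transporter loads glutamate from the cytosol into synaptic vesicles, driven by the gradient that the vesicular proton pump builds. VGLUT1 is the main form in neurons of the neocortex and hippocampus, and VGLUT2 prevails in the thalamus, brainstem and hypothalamus, whose axons carry it into cortex. Neocortical neurons can also transcribe SLC17A6, most of all during development. A nucleus holds the transcripts of its own cell, so protein in incoming axons is not seen by this assay.

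The upper-band library held 66253015 unique molecular identifiers (UMIs, each a counted transcript molecule) over 7151 barcodes, and the deeper-band library held 78352064 over 9694. After a minimum of 500 detected genes and removal of called doublets, 6261 and 8150 nuclei remained, and 24 barcodes occurred in both libraries. DCX itself was detected at like levels in both bands, with 4111 and 4121 UMIs, which are 78.5 and 77.2 counts per 1000000 UMIs (CPM). Its presence does not check the genotype, because the altered part of the gene is not given in the sources used here. With 1 library per band, band cannot be told apart from animal or library preparation, no test was possible, and all intervals below are 95% intervals that cover counting error only.

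Most UMIs of both transporter genes were in excitatory neuron-like nuclei, a class named without using either gene. These nuclei numbered 3181 (upper band) and 3453 (deeper band), with median depths of 10752 and 10399 UMIs. They held 84.7% and 86.8% of all SLC17A7 UMIs and 91.2% and 94.2% of all SLC17A6 UMIs. They were 50.8% and 42.4% of nuclei and the deepest named class, so they also held much of the RNA. Relative to all UMIs, SLC17A7 stood at 66.4 and 89.5 CPM in them against 55.9 and 73.7 CPM over all nuclei. For SLC17A6 these levels were 9.94 and 16.7 CPM against 7.77 and 12.7 CPM. SLC17A7 reached 0.779 UMIs per excitatory nucleus in upper-band tissue and 0.989 in deeper-band tissue. In the other 6 named classes it lay between 0.0931 and 0.189 UMIs per nucleus in both bands, with no class standing near the excitatory one on this scale, which follows depth. The next level was 0.189 in vascular and leptomeningeal-like nuclei of the upper band, from 50 UMIs, and its interval overlapped those of the other non-excitatory classes of that band.

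SLC17A6 was also highest per nucleus in the excitatory class, with far fewer molecules. Excitatory nuclei carried 371 (upper) and 638 (deeper) UMIs, or 0.117 and 0.185 per nucleus. Inhibitory neuron-like nuclei carried 10 and 12 UMIs, or 0.00978 and 0.0156 per nucleus. Oligodendrocyte-like nuclei carried 9 and 16 UMIs, or 0.00972 and 0.00634 per nucleus. Astrocyte-like nuclei had 3 and 6 UMIs, oligodendrocyte precursor-like nuclei 0 and 2, and microglia-like nuclei 1 in each band, which is too few to rank these classes. Vascular and leptomeningeal-like nuclei of the upper band held 11 SLC17A6 UMIs, against 1 in the deeper band.

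**Figure D1:**
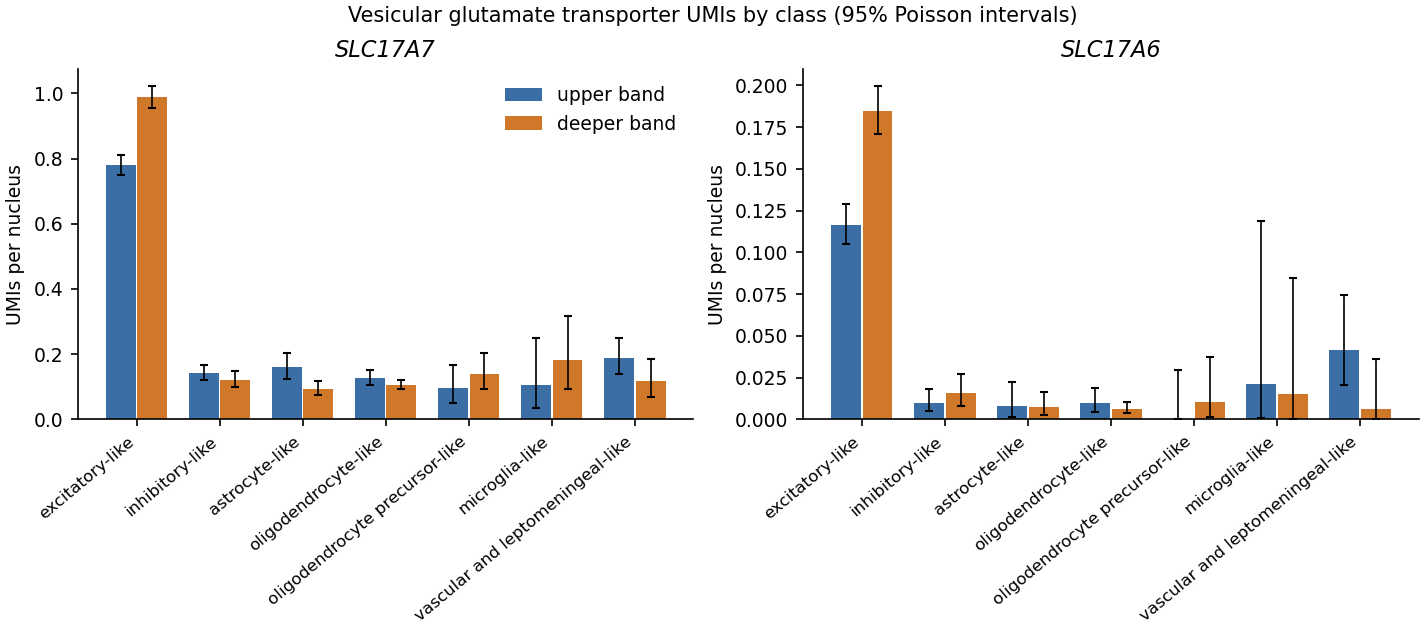
UMIs per nucleus of SLC17A7 (left) and SLC17A6 (right) in the 7 named classes of the upper-band (blue) and deeper-band (orange) library, with 95% Poisson intervals. The excitatory bars (0.779 and 0.989 for SLC17A7, 0.117 and 0.185 for SLC17A6) exceed those of every other class, and the vertical scales of the panels differ.

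The depth of the classes differs, so detection was also compared with every nucleus thinned to 1500 UMIs. An SLC17A7 UMI was then found in 10.3% and 12.5% of excitatory nuclei, against 7.96% and 7.72% of oligodendrocyte-like nuclei and 2.58% and 1.57% of inhibitory nuclei. Without thinning the shares were 52.5% and 60.8% of excitatory nuclei and 11.99% and 9.87% of oligodendrocyte-like nuclei, whose median depths were 2250.5 and 1922.5 UMIs. Relative to all RNA in the nucleus, SLC17A7 therefore stood at 52.2 CPM (43.2 to 62.6) and 51.2 CPM (45.2 to 57.7) in oligodendrocyte-like nuclei, a class that should lack it, and at 66.4 CPM (63.8 to 69.1) and 89.5 CPM (86.5 to 92.5) in excitatory nuclei. In inhibitory nuclei it stood at 17.0 and 15.3 CPM. In the shallowest classes the order on this scale differed by band. Upper-band vascular and leptomeningeal-like nuclei, with a median depth of 1156 UMIs, had 97.7 CPM of SLC17A7 (72.5 to 128.8), above the excitatory interval. They had 21.5 CPM of SLC17A6 (10.7 to 38.5) from 11 UMIs in 6 nuclei. Deeper-band microglia-like nuclei had 143.7 CPM of SLC17A7 (74.3 to 251.1) from 12 UMIs, an interval that holds the excitatory one. Upper-band microglia-like nuclei (61.1 CPM) and deeper-band vascular and leptomeningeal-like nuclei (75.1 CPM) were below the excitatory level of their band. Their intervals included that level. Thinned to 1500 UMIs SLC17A6 was found in 1.55% and 2.35% of excitatory nuclei, against 0.594% and 0.482% of oligodendrocyte-like and 0.0994% and 0.262% of inhibitory nuclei.

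The mix of the 2 transcripts was compared between classes as well. SLC17A6 made up 13.0% (11.8 to 14.3) and 15.7% (14.6 to 16.9) of the UMIs of both genes in excitatory nuclei. In oligodendrocyte-like nuclei it made up 7.09% (3.29 to 13.0) and 5.63% (3.25 to 8.99). The intervals of these classes overlapped in the upper band and were apart in the deeper band. Inhibitory nuclei had 6.41% (3.12 to 11.5) and 11.3% (5.99 to 18.9), apart from excitatory nuclei in the upper band only. Upper-band vascular and leptomeningeal-like nuclei had 18.0% (9.36 to 30.0), a higher share with an interval that overlapped the excitatory one. The part of free RNA in the UMIs outside the excitatory class was not tested.

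Between the bands, both genes were higher in excitatory nuclei of the deeper band. Upper-band nuclei held 2478 SLC17A7 UMIs (66.4 CPM) and deeper-band nuclei 3416 (89.5 CPM), which gives a log2 ratio of deeper over upper band of 0.43 (0.36 to 0.51). SLC17A6 had 371 UMIs, or 9.94 CPM (8.95 to 11.0), and 638 UMIs, or 16.7 CPM (15.4 to 18.1), a log2 ratio of 0.75 (0.56 to 0.94). The CPM intervals of the bands did not overlap for either gene. A difference of 1.5-fold or more, 0.58 on the log2 scale, was counted as past the fold. SLC17A6 was past it and SLC17A7 was not, so 1 of 2 members, where 3.03% of the 13546 genes with enough UMIs were past it towards the deeper band and 5.26% towards the upper band. The median gene stood at -0.02. The SLC17A7 ratio lay above that of 93.9% of these genes and the SLC17A6 ratio above that of 98.5%.

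SLC17A7 was not higher in the deeper band in the other large classes. Its log2 ratio of deeper over upper band was -0.15 (-0.54 to 0.23) in inhibitory nuclei, from 146 and 94 UMIs. In oligodendrocyte-like nuclei it was -0.03 (-0.35 to 0.29), and in astrocyte-like nuclei -0.45 (-0.95 to 0.06). These intervals lie below the excitatory ratio of 0.43. How much of the level in those classes is free RNA was not tested.

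The excitatory nuclei of the bands were not the same mix of subtypes. Subclusters named upper-layer-like from layer genes held 1509 (47.4%) of upper-band and 2873 (83.2%) of deeper-band excitatory nuclei. Deep-layer-like subclusters held 926 (29.1%) and 258 (7.47%), and 23.5% and 9.33% were in subclusters without a layer name. The upper-layer genes measured were higher in the deeper band past the fold in 6 of 8 cases (median log2 ratio 0.79), and the layer 6 genes were lower in 5 of 6 (median -1.13). Of all genes 3.03% were past it on the higher side and 5.26% on the lower. Of the other layer lists, 0 of 2 layer 4 genes, 4 of 7 layer 5 genes and 2 of 4 layer 6b genes were past the fold, the latter lists on the lower side. The layer mix thus moved with the band.

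SLC17A6 differed between the layer classes, and SLC17A7 did not beyond counting error. In the upper band SLC17A6 had 285 UMIs, or 15.9 CPM (14.1 to 17.9), in upper-layer-like nuclei and 35 UMIs, or 3.31 CPM (2.31 to 4.61), in deep-layer-like nuclei. Of these 35 UMIs, 26 came from 142 nuclei of the KLHL14/HHLA2 subcluster, named like the others by a pair of leading genes (21.3 CPM), and the other 784 deep-layer-like nuclei held 9, or 0.964 CPM (0.441 to 1.83). In the deeper band SLC17A6 had 593 UMIs, or 18.6 CPM (17.1 to 20.2), and 9 UMIs, or 3.32 CPM (1.52 to 6.30). The log2 ratio of upper-layer-like over deep-layer-like nuclei was 2.26 (1.76 to 2.81) in upper-band and 2.49 (1.55 to 3.62) in deeper-band tissue, and 4.05 (3.1 to 5.19) and 2.56 (1.57 to 3.78) without KLHL14/HHLA2. Each library thus showed the higher SLC17A6 level in upper-layer-like nuclei. In the upper band SLC17A7 was at 64.1 CPM in upper-layer-like and 64.3 CPM in deep-layer-like nuclei, and in the deeper band at 87.1 and 95.1 CPM. Its log2 ratios of upper-layer-like over deep-layer-like nuclei were -0.00 (-0.14 to 0.13) and -0.13 (-0.31 to 0.06), the latter -0.32 when each library was clustered on its own, where the SLC17A6 ratio of the upper band was 1.73.

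Within the named layer classes the band difference of SLC17A6 was small in upper-layer-like nuclei and not resolved in deep-layer-like nuclei. It was 0.22 (0.02 to 0.43) on the log2 scale in upper-layer-like nuclei and 0.00 (-1.24 to 1.09) in deep-layer-like nuclei, while subclusters without a layer name gave 0.80 (0.15 to 1.45), from 51 and 36 UMIs. Without KLHL14/HHLA2 the deep-layer-like levels were 0.964 CPM (0.441 to 1.83, 9 UMIs) and 3.16 CPM (1.36 to 6.22, 8 UMIs), higher in the deeper band. The intervals of these 2 levels overlap, which does not show that the levels are alike. An interval of their ratio was not computed, so whether this difference exceeds counting error was not tested. Different subclusters led the upper-layer-like class, with MCHR2/TRPC6 and HMCN1/LGR5 the largest in the upper band and POU2F3/PTGIS, ANGPT1/SYT10 and PLCXD2/SNCAIP in the deeper band. SLC17A7 kept its size, at 0.44 (0.34 to 0.54), 0.57 (0.35 to 0.77) and, without a layer name, 0.53 (0.34 to 0.71). When all 21 excitatory subclusters were given the same weights in both bands, SLC17A7 was at 65.4 CPM (upper) and 90.2 CPM (deeper), with a log2 ratio of 0.46 (0.37 to 0.56). SLC17A6 was then at 13.4 and 13.7 CPM, with a log2 ratio of 0.03 (-0.18 to 0.24). The higher SLC17A6 level of the deeper band thus disappeared at equal subcluster weights, and that of SLC17A7 did not. Across 7 other clustering and filter settings the equal-weight ratio ran from -0.05 to 0.07 for SLC17A6 and from 0.44 to 0.51 for SLC17A7.

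Among the 16 subclusters with at least 50 nuclei in each band, SLC17A7 was higher in the deeper band in 15, and in 12 of them the interval of the ratio lay above 0. Only 1.81% of the 13546 genes were higher in the deeper band in at least as many subclusters. SLC17A7 ranged from 44.5 to 89.0 CPM in the upper band and from 50.4 to 120.9 CPM in the deeper band. The log2 ratios ran from -0.08 to 0.93 with a median of 0.54. The lowest SLC17A7 level in each band was in the CYP2S1/SYT2 subcluster, with 44.5 and 50.4 CPM. The exception to the direction was the MME/PDGFD subcluster, with 65.8 CPM in the upper and 62.1 CPM in the deeper band, a difference within counting error. The largest ratio was in the KCNH8/MEGF10 subcluster, with 48.0 and 91.2 CPM.

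SLC17A6 was higher in the deeper band in 8 of the same 16 subclusters, a number that 54.1% of genes reached. Its spread among subclusters was far wider than its spread between bands. The highest levels of these 16 were in the upper-layer-like MCHR2/TRPC6 subcluster, led by a melanin-concentrating hormone receptor gene and a cation channel gene. There 284 nuclei of the upper band held 127 SLC17A6 UMIs (38.9 CPM) and 374 nuclei of the deeper band held 198 (45.2 CPM). This subcluster made up 8.93% and 10.8% of excitatory nuclei and held 34.2% and 31.0% of their SLC17A6 UMIs. At full depth 26.1% and 31.8% of its nuclei had an SLC17A6 UMI.

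A second tier of SLC17A6 levels held 5 subclusters. The PLCXD2/SNCAIP subcluster had 28.5 CPM in the upper and 22.1 CPM in the deeper band, and CYP2S1/SYT2 had 18.9 and 22.5 CPM. MEGF11/TANC1, which has no layer name, had 22.0 and 18.0 CPM. ENPP2/VEGFC had 20.7 and 18.1 CPM, and ANGPT1/SYT10 had 19.4 and 14.9 CPM. The intervals of these 5 overlapped in each band. Ratios between them were not computed, so they were not ranked. POU2F3/PTGIS, with RORB among its leading genes, was lower at 9.75 and 7.60 CPM.

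SLC17A6 was close to absent in several subclusters that carried SLC17A7 at usual levels. The RXFP1/KIT subcluster had no SLC17A6 UMI in 180 upper-band nuclei (interval up to 2.19 CPM) and 4 in 76 deeper-band nuclei, with SLC17A7 at 89.0 and 102.7 CPM. The NXPH2/BMPR1B subcluster, which has FOXP2 and SYT6 among its leading genes, had 6 and 1 SLC17A6 UMIs in 391 and 55 nuclei. An upper-layer-like name did not ensure SLC17A6. HMCN1/LGR5 had 1 and 0 UMIs in 252 and 89 nuclei, and MME/PDGFD had 3 and 1 in 179 and 195 nuclei. Both bear the upper-layer-like name, which is weak for HMCN1/LGR5, with 3 upper-layer and 3 deep-layer markers raised, against 3 and 0 for MME/PDGFD.

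Only NEB/ADAMTS19 and RXFP1/KIT had an interval of the SLC17A6 band ratio above 0. In NEB/ADAMTS19 the gene had 5 UMIs (4.88 CPM) against 27 (18.6 CPM) in the deeper band, and a log2 ratio of 1.93 (0.53 to 3.66). The RXFP1/KIT values are the 0 and 4 UMIs above. No subcluster had an interval below 0.

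**Figure D2:**
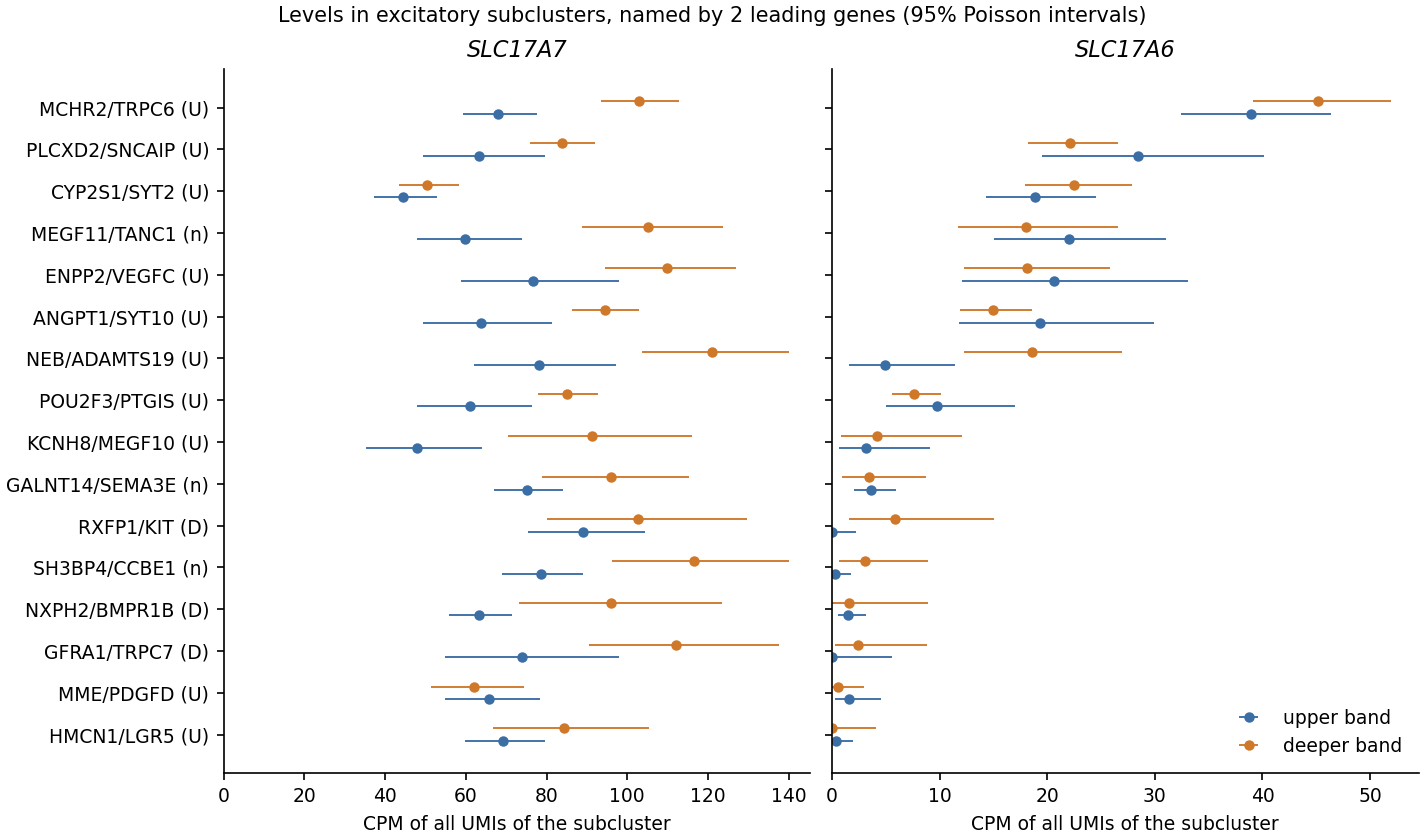
CPM of SLC17A7 (left) and SLC17A6 (right) in the 16 excitatory subclusters with at least 50 nuclei in each band, with 95% Poisson intervals, ordered by SLC17A6 and marked as upper-layer-like (U), deep-layer-like (D) or without a layer name (n). Deeper-band points (orange) lie to the right of upper-band points (blue) in 15 of 16 subclusters for SLC17A7, and SLC17A6 runs from about 0 to 45.2 CPM.

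**Figure D3:**
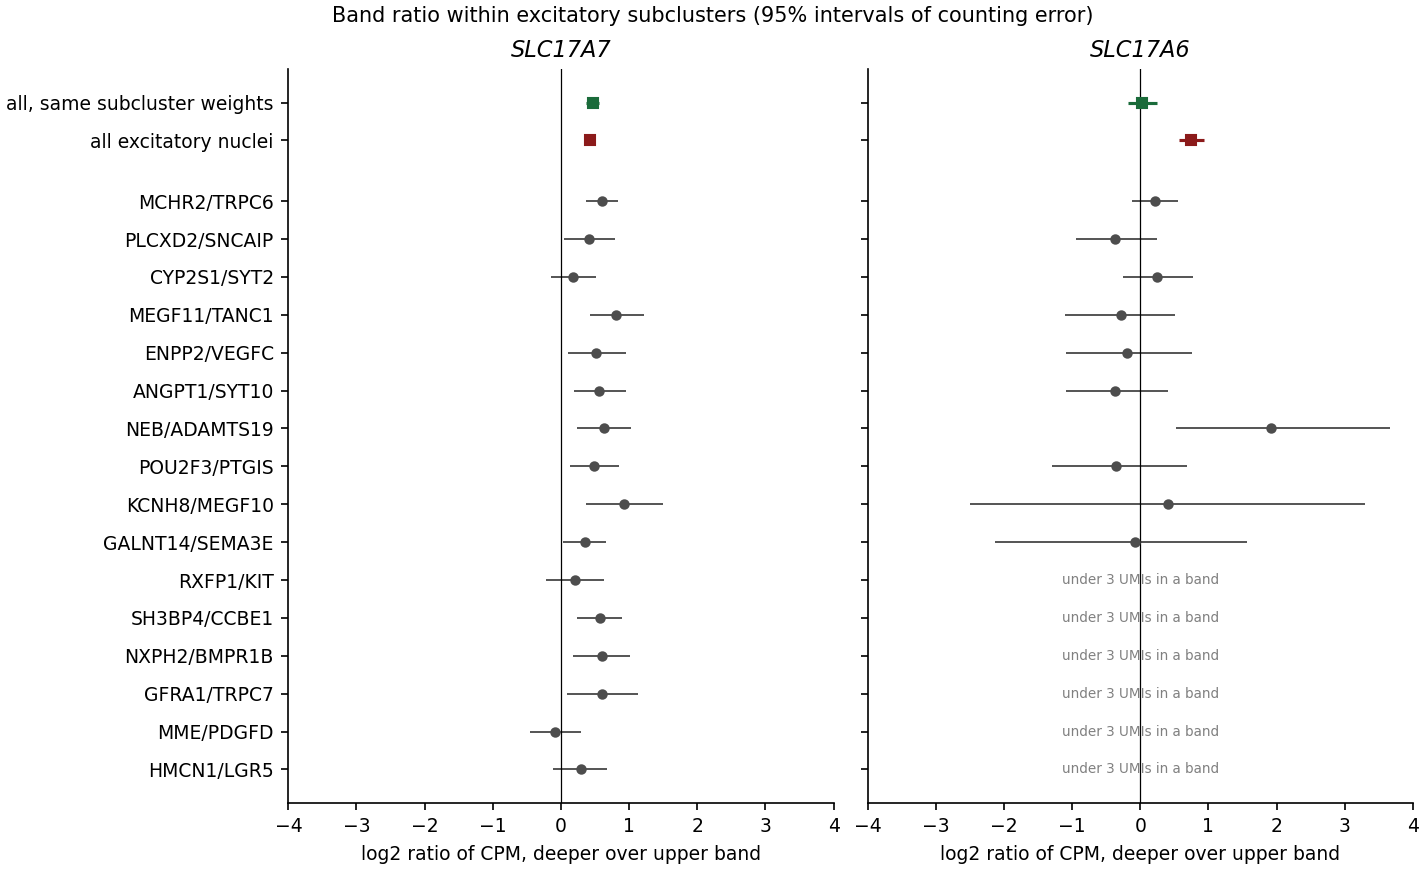
Log2 ratio of CPM, deeper over upper band, within the 16 subclusters (grey points), over all excitatory nuclei (red squares) and with the same subcluster weights in both bands (green squares), with 95% intervals. Subclusters with under 3 UMIs of the gene in a band, among them RXFP1/KIT for SLC17A6, carry a remark in place of a point. The SLC17A6 square moves from 0.75 to 0.03 and the SLC17A7 square from 0.43 to 0.46.

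Co-detection was measured with each excitatory nucleus thinned to 5000 UMIs, which kept 3059 nuclei of the upper band and 3307 of the deeper band and left out 122 and 146 shallower ones. SLC17A7 was found in 29.2% (27.6 to 30.8) and 35.0% (33.4 to 36.7) of nuclei. SLC17A6 was found in 4.09% (3.41 to 4.85) and 6.89% (6.05 to 7.81). Both were found in 33 nuclei of the upper band, or 1.08% (0.744 to 1.51), and in 79 of the deeper band, or 2.39% (1.90 to 2.97). SLC17A6 without SLC17A7 was found in 3.01% and 4.51%, and neither gene in 67.8% and 60.4%. At this depth most nuclei of a class that expresses the genes show neither, so a nucleus without a UMI is not a nucleus without the transcript.

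Detection of one transporter gene told little about the other. In the upper band SLC17A6 was found in 3.70% (2.56 to 5.15) of nuclei with SLC17A7 and in 4.25% (3.44 to 5.18) of nuclei without it. In the deeper band the shares were 6.82% (5.43 to 8.42) and 6.94% (5.90 to 8.09). No exclusion and no excess of co-detection was measurable at this depth. The intervals also overlapped within layer classes. In upper-layer-like nuclei SLC17A6 was found in 5.75% of nuclei with and 6.91% of nuclei without SLC17A7 in the upper band, and in 7.57% and 7.73% in the deeper band. In the MCHR2/TRPC6 subcluster 13 of 90 SLC17A7-positive nuclei of the upper band and 21 of 137 of the deeper band had an SLC17A6 UMI, or 14.4% and 15.3%, so nuclei with both genes were found where SLC17A6 is highest.

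Without thinning, both genes were found in 4.18% and 7.91% of excitatory nuclei, and 53.6% and 62.8% of nuclei with SLC17A6 also had SLC17A7. Among thinned nuclei those with SLC17A6 had median doublet scores of 0.0266 and 0.0472, against 0.0222 and 0.0405 in those without it, and median depths of 12112 and 11190.5 UMIs against 10860.5 and 10543. Nuclei with both genes had median doublet scores of 0.0236 (upper band) and 0.0511 (deeper band), against 0.0215 and 0.0415 in those with SLC17A7 only. The part of undetected doublets in the co-detection was not tested.

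**Figure D4:**
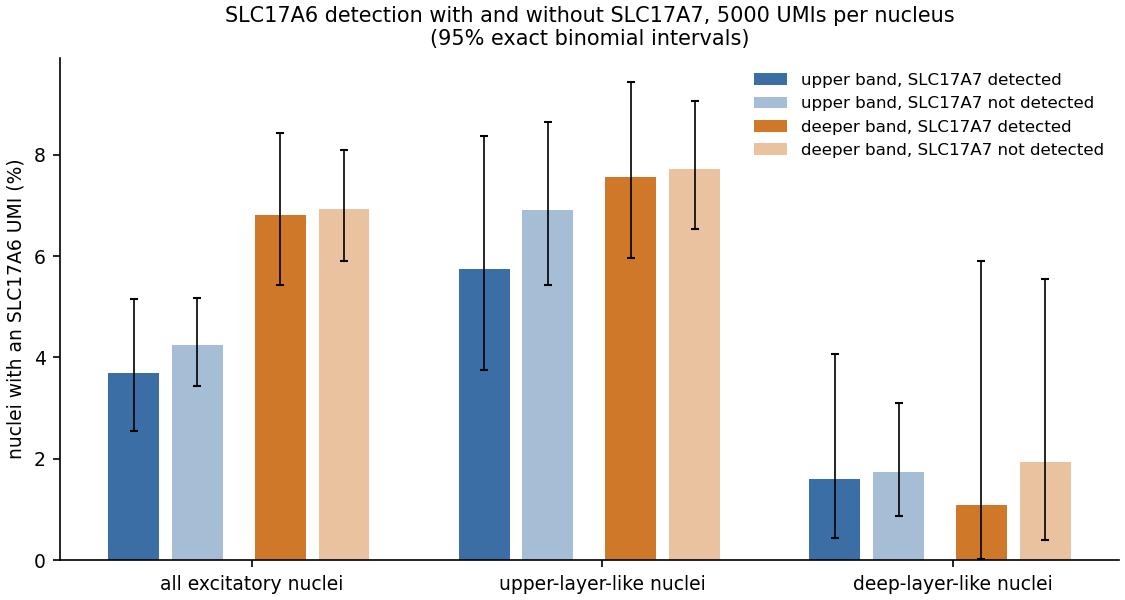
Share of excitatory nuclei with an SLC17A6 UMI at 5000 UMIs per nucleus, among nuclei with (dark) and without (pale) an SLC17A7 UMI, for all excitatory, upper-layer-like and deep-layer-like nuclei of each band, with 95% exact binomial intervals. The dark and pale bars of each pair have overlapping intervals (3.70% and 4.25% in all excitatory nuclei of the upper band), and deep-layer-like nuclei lie lowest.

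The layer setting of each transporter gene was then read nucleus by nucleus, as its level in nuclei with a UMI of a layer gene over its level in nuclei without one, all at 5000 UMIs. These layer genes are transcription factors, receptors and other genes used to tell cortical layers apart. For SLC17A6 in the upper band, 5 of 8 upper-layer genes were past the fold on the higher side and 1 on the lower side, where 11.5% of 8765 genes were past it on the higher side and 17.1% on the lower. Such all-gene shares cover genes found in, and absent from, at least 50 nuclei, and layer genes found in fewer nuclei were kept. Of the 5, 4 had intervals above 0, and POU3F2 (0.65, -1.64 to 2.23) rested on 3 SLC17A6 UMIs in 40 nuclei. CUX2, a homeobox factor of upper-layer neurons, gave the widest contrast. The 1326 nuclei with CUX2 held 121 SLC17A6 UMIs (18.3 CPM) and the 1733 nuclei without it held 26 (3.0 CPM), a log2 ratio of 2.60 (1.98 to 3.28). This value depended on the setting, at 1.09 with 2500 UMIs per nucleus, 1.47 without doublet removal and 2.24 with 2 times as many nuclei removed as doublets. RASGRF2, a Ras exchange factor of upper-layer neurons, gave 13.4 CPM against 5.05 CPM, a log2 ratio of 1.41 (0.85 to 2.00). MDGA1 gave 1.54 (0.63 to 2.34). LAMP5 gave 0.81 (0.29 to 1.31) but -0.43 at 2500 UMIs. The gene on the lower side was CALB1, found in only 20 nuclei, none of them with SLC17A6.

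The same upper-layer genes gave little contrast in the deeper band. There 2 of 8 were past the fold on the higher side and 0 on the lower, where 6.71% and 10.8% of 8831 genes were. The 2 were POU3F2 (0.84, -0.24 to 1.74) and CALB1 (0.89, -0.99 to 2.26), from 10 and 4 SLC17A6 UMIs. Both intervals hold 0, and CALB1, found in 26 nuclei, was outside the all-gene shares. With CUX2 in 2684 of 3307 nuclei, SLC17A6 stood at 17.4 CPM in those and 13.5 CPM in the rest, a log2 ratio of 0.37 (-0.11 to 0.88). This interval lies below that of the upper band, and in each of the alternatives above the CUX2 ratio was lower in the deeper band too (0.49, 0.65 and 0.70). RASGRF2 gave 0.36 (-0.07 to 0.82).

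RORB and SCNN1A, both used as layer 4 genes, pointed in opposite directions. RORB encodes a nuclear receptor of layer 4 neurons. Nuclei with RORB held 31 SLC17A6 UMIs (6.18 CPM) and nuclei without it 116 (11.3 CPM) in the upper band, a log2 ratio of -0.87 (-1.49 to -0.29). In the deeper band the counts were 65 (8.87 CPM) and 211 (22.9 CPM), a log2 ratio of -1.37 (-1.79 to -0.96). SCNN1A, a sodium channel subunit gene, gave 0.59 (-0.08 to 1.22) and 0.80 (0.32 to 1.25), but -0.31 in the deeper band at 2500 UMIs. Only RORB thus held its direction at the lower depth, at -0.78 and -1.34.

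SLC17A6 by deep-layer genes was lower for some genes and not for others. Of 7 layer 5 genes, 4 were past the fold on the lower side in upper-band nuclei and 3 in deeper-band nuclei, and of 6 layer 6 genes 5 and 2, with none past it on the higher side, where 17.1% (upper band) and 10.8% (deeper band) of all genes were past it on the lower side. Intervals lay below 0 for 2 layer 5 genes in each band and for 5 and 1 layer 6 genes. TSHZ2 and BCL6 counted in the upper band from 1 and 2 SLC17A6 UMIs, and TSHZ2 in the deeper band from 3. With 36 upper-band nuclei, TSHZ2 was outside the all-gene share there. FEZF2, a zinc finger factor of subcerebral projection neurons, gave -1.65 (-2.99 to -0.57) and -1.69 (-3.97 to -0.12), the latter from only 3 SLC17A6 UMIs in 113 nuclei with FEZF2. ETV1, a layer 5 transcription factor, gave -1.49 (-2.18 to -0.86) and -0.86 (-1.37 to -0.38). FOXP2, a forkhead factor of corticothalamic neurons, gave -2.91 (-5.21 to -1.34) in the upper band, where 415 nuclei with FOXP2 held 3 SLC17A6 UMIs, and -1.33 (-3.22 to 0.04) in the deeper band. In the deeper band SYT6 (0.54), PCP4 (0.36) and BCL11B (0.24) had ratios above 0, each with an interval that includes 0. Of 4 layer 6b genes, 1 was past the fold on the higher side and 2 on the lower in each band, against 11.5% and 6.71% of all genes on the higher side. Intervals were clear of 0 for 0 (upper band) and 1 (deeper band) of them on the higher side and for 1 in each band on the lower.

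SLC17A7 barely followed the layer genes. Its medians over the lists lay between -0.11 and 0.08, and 1 of 27 layer genes was past the fold in each band, on the higher side. For all genes tested the higher side held 0.251% (upper band) and 0.113% (deeper band), and the lower side 0.844% and 0.578%. The layer genes past it were CALB1 in the upper band (0.82, -0.14 to 1.63, from 20 nuclei) and NXPH4 in the deeper band (0.59, -0.17 to 1.26, from 27 nuclei). Both intervals include 0, and at 20 and 27 nuclei neither gene entered the all-gene shares, which needed at least 50 nuclei. In the deeper band 4 smaller ratios had intervals clear of 0 and were named after their values were seen, with RORB and UNC5D lower (-0.22 and -0.20) and LHX2 and ZFPM2 higher (0.22 and 0.23), and the LHX2 ratio was -0.05 without doublet removal. With CUX2 the SLC17A7 ratio was -0.02 (-0.20 to 0.15) and -0.17 (-0.36 to 0.01). For RORB this meant 81.5 CPM of SLC17A7 with and 94.7 CPM without it.

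**Figure D5:**
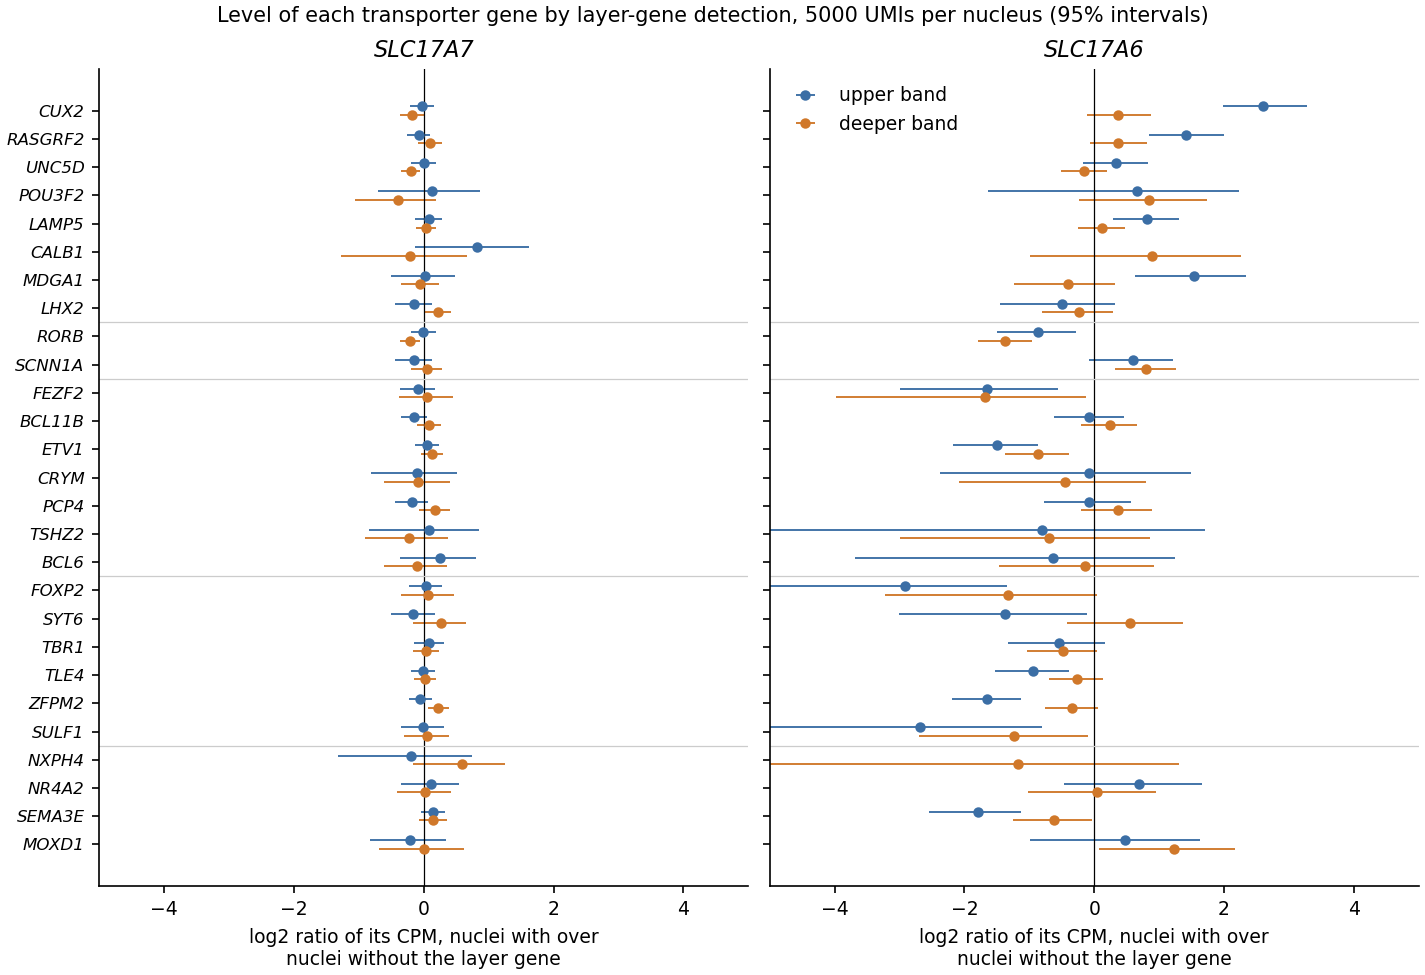
Log2 ratio of the CPM of SLC17A7 (left) and SLC17A6 (right) in excitatory nuclei with over nuclei without a UMI of each of 27 layer genes, at 5000 UMIs per nucleus, in the upper band (blue) and deeper band (orange), with 95% intervals cut at the frame. Horizontal lines part the upper-layer, layer 4, layer 5, layer 6 and layer 6b lists, and the SLC17A7 points stay near 0 while SLC17A6 runs from 2.60 (CUX2) to -2.91 (FOXP2) in the upper band.

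Genes whose CPM differed between nuclei with and without SLC17A6 were counted in the same way. In the upper band 8.15% of 11786 genes were 1.5-fold or more higher with SLC17A6 and 16.4% lower, and in the deeper band 5.2% and 10.4% of 11825. For nuclei with and without SLC17A7 the shares were 1.17% and 1.89% (upper band) and 1.23% and 1.7% (deeper band). Only 125 and 228 nuclei had SLC17A6, so sparse genes pass easily. Among the genes the naming rule gave, GAS2, a cytoskeletal linker gene, had 57.6 against 18.7 CPM in upper-band nuclei and 36.8 against 17.7 CPM in deeper-band nuclei (log2 ratios 1.62 and 1.06). SAG, the arrestin gene best known from photoreceptors, stood at 27.2 against 11.8 CPM and 27.2 against 12.8 CPM. LPCAT4, a phospholipid acyltransferase gene, stood at 30.4 against 14.7 and 28.1 against 13.8 CPM. RXFP1, a relaxin receptor gene, was lower, at 6.4 against 32.0 CPM and 1.75 against 10.2 CPM. MCHR2 and OCLN were among the others on the higher side, and MME, PSME2 and MEGF10 among those on the lower. MCHR2, GAS2, OCLN, MME, MEGF10 and RXFP1 are also leading genes of the subclusters where SLC17A6 is high or low.

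Genes that work with the transporters were compared between the bands by list. Of the transporter's own family, SLC17A5, the lysosomal sialic acid carrier, was the 1 gene with enough UMIs and stood at 81.1 and 78.5 CPM (log2 ratio -0.05). SLC17A8, which encodes VGLUT3, had only 46 and 16 UMIs in excitatory nuclei. Of 14 genes of glutamate synthesis and uptake, 0 were past the fold on the higher side and 1 on the lower, with a median of -0.07. Of all 13546 genes 3.03% were past it on the higher side and 5.26% on the lower, so 1 gene in a list this small says little about the list. SLC25A12, a mitochondrial aspartate and glutamate carrier, was at 265.7 and 259.0 CPM. The gene past the fold was SLC1A2, a glutamate uptake carrier most abundant in astrocytes, at 161.0 and 101.7 CPM (log2 ratio -0.66). Of the vesicular transporters of other transmitters, only SLC18A1, a monoamine carrier, had enough UMIs, and its log2 ratio was -0.63.

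Of 10 genes of the vesicular proton pump and anion channels, 1 was past the fold on the higher side, where 3.03% of all genes were, with a median of 0.03. ATP6V1H, the most counted pump gene, was at 242.4 and 233.6 CPM. The gene past the fold was ATP6V0C, a membrane subunit of the pump, from 60 and 104 UMIs (log2 ratio 0.76), and ATP6AP1, an accessory subunit gene, was at 0.46. Of 17 genes of synaptic vesicles and release, 1 was past the fold on the higher side, against the same 3.03%, with a median of 0.05. It was RAB3A, a vesicle GTPase gene, at 26.5 and 41.4 CPM (0.65). SYP, which encodes the vesicle membrane protein synaptophysin, was at 123.9 and 169.0 CPM (0.45) and SV2C, a vesicle glycoprotein gene, at 267.4 and 364.4 CPM (0.45), beside the 0.43 of SLC17A7, while SYT1, the calcium sensor of release, was at -0.03 and SV2B at -0.23. SYN2, a synapsin gene, was at 0.05 and SNAP25, a membrane fusion gene, at 0.19. The members of the vesicle list ran from -0.23 to 0.65.

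SLC17A7 and SLC17A6 did not vary together over subclusters. Over 35 units, each 1 subcluster in 1 library with at least 50 nuclei, Pearson's r between them was -0.02. The units share 2 libraries, and neighbouring subclusters share RNA. Among 7921 other genes with enough UMIs, those most like SLC17A7 were HSP90AB1 (r 0.78), a chaperone gene, SCG2 (0.77), a secretory granule gene, ATP6AP1 (0.76), an accessory subunit gene of the proton pump, TUBB2B (0.76) and RABAC1 (0.76). The 10 genes most like SLC17A7 were all higher in excitatory nuclei of the deeper band, as the choice by likeness favours. In inhibitory nuclei, which the choice did not use, 8 of these 10 were also higher in the deeper band, 7 with intervals above 0, with a median log2 ratio of 0.63. Of 7530 genes with enough UMIs there, 13.5% had an interval above 0 and 11.6% below, and their median was 0.01. In astrocyte-like nuclei the 8 of these genes with enough UMIs were all higher, 2 with intervals above 0, with a median of 0.27, where 8.18% of 3690 genes had an interval above 0 and 11.2% below. In oligodendrocyte-like nuclei 9 had enough UMIs, 3 with intervals above 0 and 1 below, with a median of 0.18, where 9.31% of 5015 genes had an interval above 0 and 11.5% below. These values stand beside the -0.15 of SLC17A7 itself in inhibitory nuclei, and the part of a difference between libraries in the excitatory SLC17A7 ratio was not tested. Those most like SLC17A6 were CYLD (r 0.80), a deubiquitinase gene, FEM1C (0.79), SMAP2 (0.79), KCNJ3 (0.79), a potassium channel gene, and TRAF5 (0.78).

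Markers of other neurons that express SLC17A6 were examined in the excitatory class. The summed level of 12 thalamic, midbrain and other subcortical neuron genes was 6.46 and 7.57 CPM in the upper and deeper band, and 7 of the 12, among them GBX2 and SOX14, had no UMI in either band. TCF7L2 had enough UMIs for a ratio (-0.11). LEF1, under the UMI minimum in the upper band, had 41 and 96 UMIs (log2 ratio 1.19, 0.65 to 1.76). The summed level of 6 Cajal-Retzius neuron genes, was 24.9 and 15.8 CPM, almost all of it RELN (24.2 and 14.5 CPM), which interneurons also express. TP73 and LHX5 had no UMI. At 5000 UMIs the summed Cajal-Retzius level was 24.0 CPM in nuclei with and 24.5 CPM in nuclei without SLC17A6 in the upper band, and 25.4 and 15.8 CPM in the deeper band. The summed subcortical level was 11.2 against 5.86 CPM in the upper band and 4.39 against 6.69 CPM in the deeper band. In this comparison 1 of the 12 subcortical genes had enough UMIs in each band. The sums carry no intervals, and whether their differences exceed counting error was not tested. Of 5 measured immature neuron genes, 1, STMN1, was past the fold on the higher side, where 3.03% of all genes were, and their summed level was 454.1 and 468.5 CPM. At 5000 UMIs the summed immature neuron level in the upper band was 392.0 CPM in nuclei with and 443.3 CPM in nuclei without SLC17A6. In the deeper band it was 444.7 and 471.8 CPM. The part of any such neurons in the SLC17A6 level was not tested.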

How the data were processed

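The deposited values are UMI counts per feature and barcode, 1 matrix per library, without normalization, per the file headers. The matrix header names software version 3.1.0, and the submitters' processing notes name Cell Ranger 6.2.1 and Cell Ranger 2.1.1. The aligner, genome build, annotation and use of intronic reads are not given in the sources used here, so no coordinates or gene lengths were used and levels of different genes were not ranked.

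A minimum of 500 detected genes left 7091 and 9608 nuclei. Scrublet (scanpy 1.11.5) was run on each library and removed 830 (11.7%) and 1458 (15.2%) nuclei, against expected 5.67% and 7.69%, and left median depths of 7992 and 4887.5 UMIs. No free-RNA correction was made. Both libraries were clustered together without SLC17A7, SLC17A6 and SLC17A8 (2000 variable genes, 30 principal components, 15 neighbours, Leiden resolution 1, igraph 0.11.9, scikit-learn 1.9.0, Python 3.11.15), and excitatory nuclei were clustered again. Classes and layer groups were named from marker lists. The scoring rule was set after clusters of these data had been seen, and all names mean resemblance. A marker counted as raised at 10% or more of nuclei and a high level relative to other clusters, and a name needed 3. Clusters with markers of glial mixtures (307 and 183 nuclei) stayed unnamed and were left out.

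UMIs were summed per library and set and given as CPM with exact Poisson intervals. Log2 ratios carry exact conditional binomial intervals and shares exact Clopper-Pearson intervals, by scipy 1.17.1. Molecules of 1 library are not replicates. Genes needed 50 UMIs in each library, and 1.5-fold counted as past the fold. The ratio procedure was tested on simulated data. Equal-weight ratios used the same subcluster weights in both bands. Likeness was Pearson's r of log2(CPM + 1) over subclusters with at least 50 nuclei, among genes with 200 UMIs.

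The members and lists were chosen with earlier results of these data known. Named were both transporter genes, layer genes with enough UMIs, 2 to 4 genes per pathway list, those past the fold, the 10 genes most like each member, and, among nuclei with against without SLC17A6, the 10 genes whose smaller log2 ratio of the libraries was highest and the 10 whose larger one was lowest. Alternatives were doublet handling, filters, clustering and thinning.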

Additional observations from a re-analysis of the deposited data

How the results depend on the processing

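With 1 library per band no result has a replicate check and leaving out a library was not possible. No paired analysis was possible because each band had a single library. Of 135 comparisons of 13 main values with an alternative, 111 moved by no more than counting error, 24 moved and 0 changed sign. The SLC17A7 band ratio ran from 0.37 to 0.46 in most, and was 0.52 with the oligodendrocyte level subtracted as background, an alternative chosen after seeing the data. The SLC17A6 band ratio was 0.03 with equal subcluster weights, where the alternative itself removes the subtype mix. With each library clustered on its own, the upper-layer-like over deep-layer-like ratio was -0.32 for SLC17A7 in the deeper band and 1.73 for SLC17A6 in the upper band, and the cause was not tested. Without the KLHL14/HHLA2 subcluster, left out after seeing the data, the SLC17A6 ratio of the upper band was 4.05. Without doublet removal SLC17A7 was found in 37.0% of deeper-band nuclei.

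Detection shares follow depth and the UMI minimum by construction. Thinned to 2500 UMIs, SLC17A7 was found in 16.0% and 20.5%, SLC17A6 in 2.29% and 3.43% and both in 0.191% and 0.879% of nuclei. Without thinning they were 52.5% and 60.8%, 7.80% and 12.6%, and 4.18% and 7.91%. With at least 2 UMIs they were 4.51% and 8.04%, 0.621% and 1.12%, and 0.0327% and 0.181%.

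Of 874 comparisons for single genes, 7 changed sign by the same rule. For SLC17A6 these were the deeper-band ratio with MOXD1 (-0.10 without doublet removal, -1.65 with 2 times as many nuclei removed, -0.02 at 2500 UMIs), with SCNN1A in the deeper band (-0.31 at 2500 UMIs) and with LAMP5 in the upper band (-0.43 at 2500 UMIs). The SLC17A7 ratio with LHX2 in the deeper band was -0.05 without doublet removal, and the band ratio of NTNG2 was 0.01 with 2 times as many nuclei removed. The causes were not tested.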

Other observations

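SLC17A8, the gene of VGLUT3, was rare in excitatory nuclei and unevenly spread. The deep-layer-like KLHL14/HHLA2 subcluster, which has the serotonin receptor gene HTR2C among its leading genes, held 31 of the 46 SLC17A8 UMIs of the upper band (25.4 CPM) in 142 nuclei, and 3 of the 16 UMIs of the deeper band in 20 nuclei. The same subcluster had 26 SLC17A6 UMIs (21.3 CPM) in the upper band, the highest SLC17A6 level of the deep-layer-like subclusters there, and 1 UMI in the deeper band. SLC17A7 stood at 60.6 CPM in its upper-band nuclei. In the upper band it is the one deep-layer-like subcluster with all 3 genes above 20 CPM, while its deeper-band nuclei had 5.59 CPM of SLC17A6 and 16.8 CPM of SLC17A8. These subclusters were picked out after their values were seen.

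A subcluster of 16 upper-band and 19 deeper-band nuclei led by TLL1 and STK32B had 7 and 9 SLC17A6 UMIs (41.4 and 43.4 CPM), as high as MCHR2/TRPC6, with wide counting intervals (16.6 to 85.3 CPM in the upper band).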
